A study of Rattus norvegicus with 6 samples.

Results

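The lysosomal proteases of soft tissue healed around a dental implant were compared with those of mucosa healed over an empty tooth socket, for 10 genes: the aspartic protease gene Ctsd, the cysteine cathepsin genes Ctss, Ctsl, Ctsk, Ctsb, Ctsh, Ctsc and Ctsz, the asparaginyl endopeptidase gene Lgmn (legumain), and Cst3, which encodes cystatin C, an inhibitor of the cysteine cathepsins. The genes were taken by symbol from the annotation of a rat expression array, on which 14218 genes had a probe set of their own. All 10 were on the array and passed the filter on low signals, as did 10585 genes in all. Where a gene had several probe sets, the brightest by its mean on the 6 arrays was used: 7 genes had 1 probe set, and Ctsc, Ctsl and Lgmn had another.

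The peri-implant group (3 arrays) was soft tissue from around a titanium alloy implant in the left upper first molar socket of male Sprague Dawley rats. The oral mucosa group (3 arrays) was tissue from the right side of the mouth, where the molar had been extracted and the site left to heal without an implant. All rats were 4 weeks old at surgery, lost the molars of both sides, and were sampled 4 weeks later. Implant and side of the mouth go together in this design and cannot be told apart. Whether the 3 samples of a group are 3 animals is not in the labels. The p-values therefore reflect only how far these samples differed among themselves, and part of that may be technical.

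Cathepsins are made as inactive precursors, carried to endosomes and lysosomes, largely by mannose 6-phosphate receptors, and activated there at acid pH, where they digest proteins brought in from outside or from within the cell. In macrophages and dendritic cells they also cut antigens and the invariant chain that guards the MHC class II groove. When secreted, several of them can degrade matrix proteins, and cystatin C is a main extracellular brake on the cysteine cathepsins. In gum tissue these enzymes are known from macrophages, fibroblasts and epithelium alike.

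Signals are log2 values, scaled per array by the authors, so a difference of 1 is 2-fold. Differences are peri-implant minus mucosal, with the standard error (SE) of a limma fit to all 18625 probe sets tested, and adjusted p-values are Benjamini-Hochberg values over all of these, read at 0.05. Array medians lay between 6.62 and 6.78. Signals below 5.90, the 40th percentile of all single values, are called dim, and all 10 genes lay well above this in both tissues. Between arrays of a group the Pearson correlation over the tested probe sets was 0.975 to 0.981 in peri-implant tissue and 0.965 to 0.974 in mucosa, and between groups it was 0.931 to 0.945. Markers of the labelled tissue were bright on every array: the summed signal of 12 keratinocyte genes was 18.43 to 18.83 in peri-implant tissue and 18.35 to 18.82 in mucosa.

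Of the 10 genes, 6 were higher in peri-implant tissue, 2 were lower and 2 did not pass the test. Ctss, Ctsz and Ctsd made up the upper end, each between 2.84-fold and 3.70-fold higher. Lgmn, Ctsh and Ctsc rose by 0.41 to 0.47, and Ctsb and Ctsl differed by 0.22 and 0.15 without passing. Ctsk and Cst3 fell. Across the whole comparison, 26.1% of genes passed, 15.2% higher and 11.0% lower. Among the 4555 genes with a mean signal at least that of the dimmest of the 10, Ctsz, 33.5% passed. The median difference of the 10 genes was 0.42, against 0.03 over all genes tested. The arrays of the groups did not overlap for any of the 10 genes, 8 with peri-implant arrays above and 2 with them below. Of all genes tested 41.9% did not overlap, 24.0% above and 17.9% below, and of genes of at least that signal 48.8%.

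**Figure D1:**
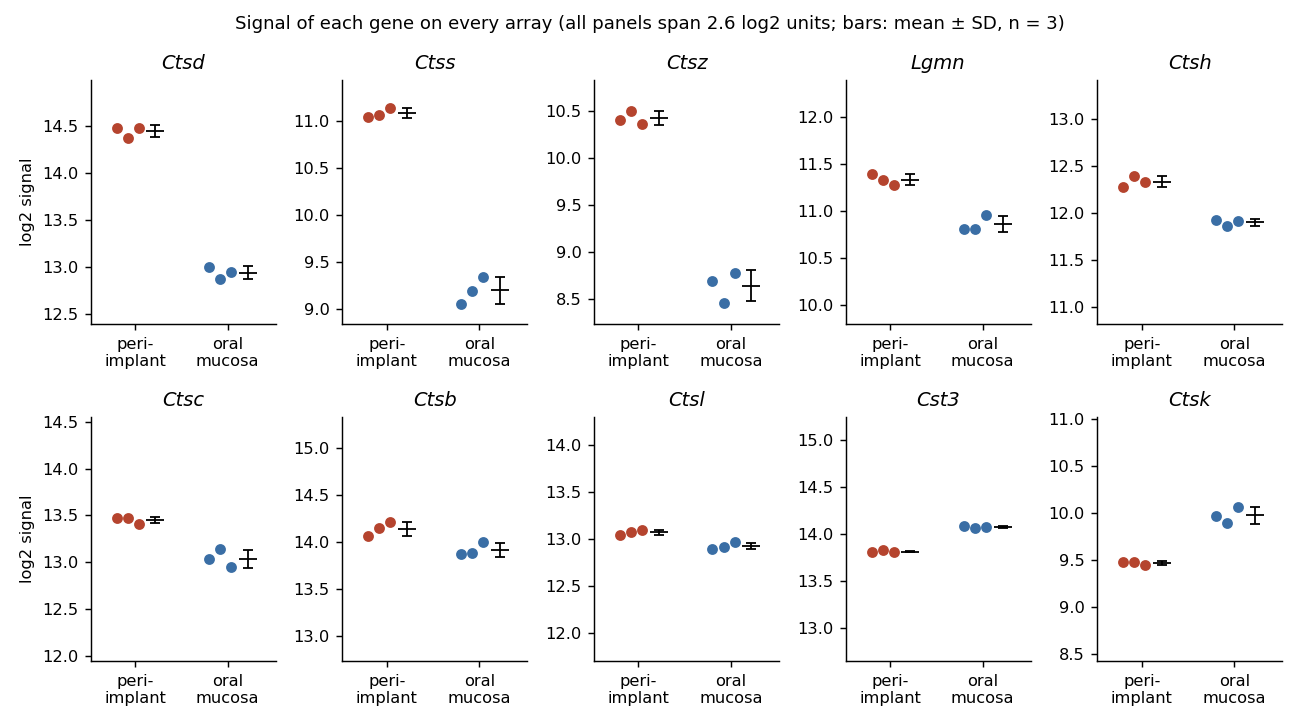
Each panel shows the log2 signal of a gene on the 3 peri-implant arrays (red, left) and the 3 oral mucosa arrays (blue, right), with the mean and SD beside the points. All panels span the same range of log2 units. The mean differences of Ctsd, Ctss and Ctsz stand out against those of 0.15 to 0.51, in either direction, in the other genes.

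Ctsd encodes cathepsin D, an aspartic endopeptidase of the lysosome found in most cell types. Its signal was 14.48, 14.37 and 14.48 on the peri-implant arrays, against 13.00, 12.87 and 12.94 on the mucosal arrays. The lowest peri-implant array stood 1.37 above the highest mucosal array. The difference was 1.50 (SE 0.08), or 2.84-fold (limma adjusted p = 1.78e-08). At its closest the Ctsd signal lay 1.78 below the highest signal of an array.

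Ctss encodes cathepsin S, a cysteine endopeptidase of antigen-presenting cells that makes the late cuts in the invariant chain and keeps activity at neutral pH. Its signal was 11.04, 11.06 and 11.14 in peri-implant tissue, against 9.06, 9.19 and 9.34 in mucosa. The peri-implant arrays lay close together and the mucosal arrays were spread more widely, with SDs of 0.05 and 0.14, and a gap of 1.70 separated the groups. The difference was 1.89 (SE 0.09), or 3.70-fold (adjusted p = 1.26e-08, limma).

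Ctsz encodes cathepsin Z, also called cathepsin X, a carboxypeptidase prominent in macrophages and other myeloid cells. It stood at 10.41, 10.50 and 10.37 in peri-implant tissue, against 8.69, 8.45 and 8.78 in mucosa. Again no mucosal array came near a peri-implant array. The difference was 1.78 (SE 0.11), or 3.44-fold (limma adjusted p = 9.43e-08). Ctsd, Ctss and Ctsz kept their calls in all 19 alternative analyses, with differences of 1.47 to 1.70, 1.67 to 1.96 and 1.69 to 2.10.

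The remaining exopeptidases moved by less. Ctsh, whose product cathepsin H trims the amino ends of peptides, stood at 12.28, 12.39 and 12.33 in peri-implant tissue, against 11.93, 11.86 and 11.91 in mucosa. It was 0.43 higher (SE 0.07, limma adjusted p = 4.93e-04). Ctsc encodes cathepsin C, a dipeptidyl peptidase that activates the granule serine proteases of neutrophils, mast cells and cytotoxic lymphocytes. Its signal was 13.48, 13.47 and 13.41, against 13.04, 13.14 and 12.95 in mucosa, a rise of 0.41 (SE 0.08, limma adjusted p = 0.00151). Its other probe set was higher as well, by 0.37 (SE 0.11, limma adjusted p = 0.0273), at 13.34, 13.31 and 12.93 against 12.89, 12.92 and 12.68. On that probe set peri-implant array 3 stood just above the highest mucosal array.

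Ctsb encodes cathepsin B, which cuts both within proteins and from their carboxyl end, and it did not pass. It stood at 14.07, 14.15 and 14.21 in peri-implant tissue, against 13.87, 13.89 and 14.01 in mucosa, a difference of 0.22 (SE 0.08, limma adjusted p = 0.0726). The groups were 0.06 apart at their closest. The call depended on the analysis: Ctsb passed at 0.33 under quantile normalisation (limma adjusted p = 1.84e-04), at 0.23 with array weights (limma adjusted p = 0.0409) and at 0.26 without mucosal array 3 (limma adjusted p = 0.0435).

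Among the other cysteine endopeptidases, Ctsl and Ctsk went different ways. Ctsl encodes cathepsin L, which is widely expressed and in epithelium takes part in keratinocyte turnover, as known from mice. Its signal was 13.05, 13.08 and 13.10, against 12.90, 12.91 and 12.97 in mucosa. The difference of 0.15 (SE 0.07) did not pass (limma adjusted p = 0.156), nor did that of its other probe set, 0.11 (SE 0.08, limma adjusted p = 0.392), where the groups overlapped. Quantile normalisation brought Ctsl past the threshold, at 0.24 (limma adjusted p = 0.00316).

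Ctsk encodes cathepsin K, a strong collagenase known from bone-resorbing osteoclasts and also made by fibroblasts. It stood at 9.48, 9.48 and 9.45 in peri-implant tissue, against 9.97, 9.89 and 10.07 in mucosa. All 3 peri-implant arrays were below all mucosal arrays. Ctsk fell by 0.51 (SE 0.09, limma adjusted p = 0.00138).

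Lgmn encodes legumain, which cuts after asparagine and processes several cathepsins into their mature chains. Its signal was 11.40, 11.33 and 11.28 in peri-implant tissue, against 10.81, 10.81 and 10.96 in mucosa, higher by 0.47 (SE 0.08, limma adjusted p = 5.46e-04). Its other probe set was dim and below the filter, at 4.78, 4.62 and 0.02 against 4.84, 6.15 and 4.16. Peri-implant array 3 lay almost at the lowest value the table holds, so this probe set carried no usable level. With the mean of both probe sets Lgmn stood at -0.72 (limma adjusted p = 0.410), and its call was also lost with the β-actin covariate described at the end (limma adjusted p = 0.287).

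Cst3, the cystatin C gene, stood at 13.80, 13.82 and 13.80 in peri-implant tissue, against 14.08, 14.06 and 14.07 in mucosa. The arrays of each group lay very close together, with an SD of 0.01 in either tissue. Cst3 fell by 0.26 (SE 0.07, limma adjusted p = 0.0213), where the SE is larger than these SDs because the fit draws on the spread of probe sets of like signal. In 7 of 19 alternatives Cst3 no longer passed, and limma adjusted p-values ran from 0.0141 to 0.627. These included quantile normalisation, where the difference was -0.15, and the removal of peri-implant array 1, 2 or 3, where it was -0.26, -0.27 and -0.26.

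**Figure D2:**
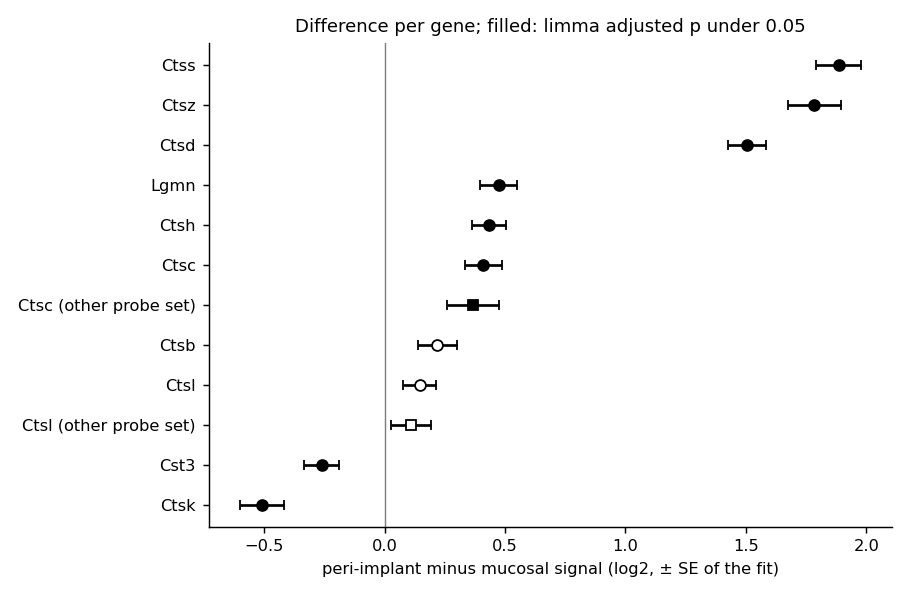
Points show the difference per gene, peri-implant minus oral mucosa on the log2 scale, with the SE of the fit. Circles are the probe sets used, squares the other tested probe sets of Ctsc and Ctsl, and filled symbols passed at a limma adjusted p under 0.05. Ctss, Ctsz and Ctsd stand at 1.50 to 1.89, apart from all others, and Cst3 and Ctsk lie below 0.

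The protease signals were also set against that of Cst3 on the same array, as a description without a test. A signal on this kind of array depends on its probes, so only the change between tissues can be read. Cystatin C is no inhibitor of the aspartic protease cathepsin D, and Ctsd is given on the same scale for completeness. Relative to Cst3, Ctss changed by 2.15, Ctsz by 2.04 and Ctsd by 1.77. Lgmn, Ctsh and Ctsc changed by 0.74, 0.70 and 0.67, and Ctsb and Ctsl by 0.48 and 0.41. For these 8 genes every peri-implant array was above every mucosal array. That had to be so, since each lay above on its own and Cst3 lay below. Each change is the gene's own difference widened by the fall of Cst3, whose call was lost in 7 of 19 alternatives. For Ctss minus Cst3 the values were -2.76, -2.76 and -2.66 in peri-implant tissue, against -5.03, -4.87 and -4.73 in mucosa. Ctsk was the exception, with a change of -0.25, so its signal fell further than that of Cst3.

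**Figure D3:**
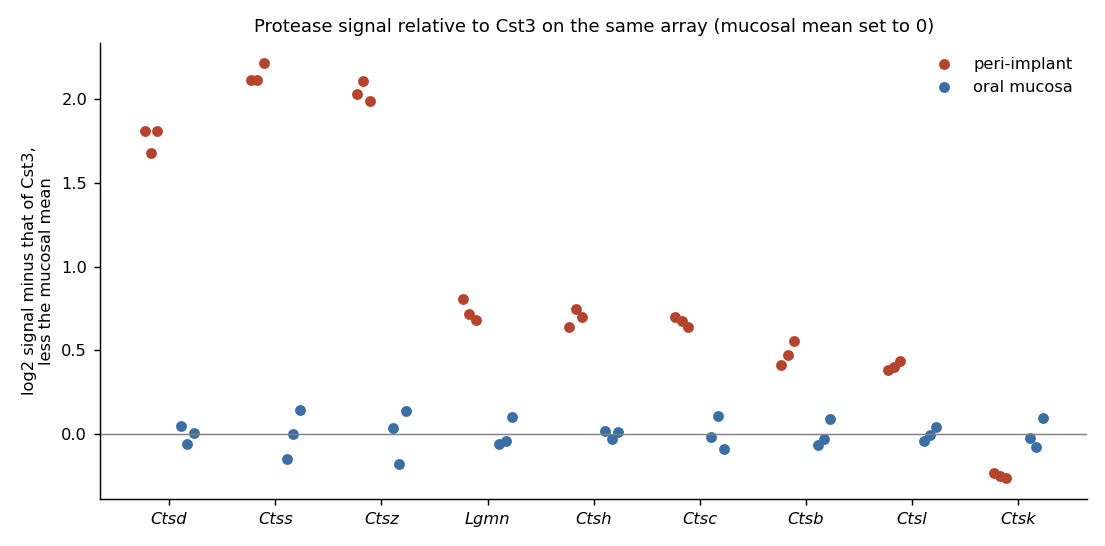
For each protease gene, points show the log2 signal minus that of Cst3 on the same array, with the mucosal mean of each gene set to 0, for peri-implant (red, left) and oral mucosa arrays (blue, right). Ctsd, Ctss and Ctsz stand 1.77 to 2.15 above mucosa, 5 genes 0.41 to 0.74 above, and Ctsk 0.25 below.

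The promoters of the genes with the widest changes are shown because lysosomal genes are known to share a regulatory element, centred on CACGTG, that is bound by the transcription factor TFEB, while GAGGAA is the core bound by PU.1, a factor of myeloid cells. RefSeq promoter sequences (build GRCr8) were found for 9 of the 10 genes, and the 250 bases before the annotated start were searched on both strands. Capitals mark CACGTG in Ctsd and GAGGAA (or TTCCTC, its reverse complement) in the others, and no matches overlapped. The Ctsd sequence is chr1:206968822-206969071, minus strand. That of Ctss is chr2:185775146-185775395, plus strand. That of Ctsz is chr3:183653848-183654097, minus strand. That of Ctsk, which fell, is chr2:185747298-185747547, plus strand.
Ctsd: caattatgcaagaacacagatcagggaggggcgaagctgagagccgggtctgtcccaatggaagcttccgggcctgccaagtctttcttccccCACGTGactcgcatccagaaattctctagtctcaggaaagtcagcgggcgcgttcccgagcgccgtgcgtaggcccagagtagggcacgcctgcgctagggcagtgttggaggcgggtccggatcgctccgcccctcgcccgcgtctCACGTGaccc
Ctss: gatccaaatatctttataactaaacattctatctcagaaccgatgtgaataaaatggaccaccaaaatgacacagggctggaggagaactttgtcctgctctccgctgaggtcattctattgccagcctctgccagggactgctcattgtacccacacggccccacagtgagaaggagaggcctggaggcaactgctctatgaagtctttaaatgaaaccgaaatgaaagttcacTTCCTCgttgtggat
Ctsz: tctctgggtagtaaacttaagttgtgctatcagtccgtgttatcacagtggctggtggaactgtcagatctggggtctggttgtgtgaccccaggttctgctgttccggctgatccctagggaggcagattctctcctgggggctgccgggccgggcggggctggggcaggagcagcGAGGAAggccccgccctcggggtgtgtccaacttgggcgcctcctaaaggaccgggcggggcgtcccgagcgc
Ctsk: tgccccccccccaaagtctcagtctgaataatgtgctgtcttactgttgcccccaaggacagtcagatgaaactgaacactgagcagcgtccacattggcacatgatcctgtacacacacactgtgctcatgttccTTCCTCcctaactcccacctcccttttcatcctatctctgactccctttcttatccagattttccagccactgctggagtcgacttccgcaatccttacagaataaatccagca

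CACGTG was present in 1 of the 9 genes, Ctsd, which held it at 157 to 152 and at 10 to 5 bases before the start. Of 33469 rat promoter windows of this length 5.59% held it at least once and 0.43% held 2 or more. GAGGAA was found in 5 of the 9, Ctss, Ctsc, Ctsh, Ctsk and Ctsz, and in 23.3% of all windows. The genes with it included Ctsk, which fell, and Ctss and Ctsz, which rose most. TTCNNNGAA, a motif bound by STAT factors, was found in 0 of the 9 and in 7.67% of all windows. A match is a run of letters and was not tested as a binding site.

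The genes whose profile over the 6 arrays was nearest to that of Ctss, by Euclidean distance after each gene's own mean was removed, were Apoe, Acadm, Gpld1, Cybb and Fcer1g, among 10575 candidates. Their distances were 0.16 to 0.20 log2 units. Apoe, apolipoprotein E, stood at 12.97 ± 0.05 in peri-implant tissue and 11.07 ± 0.19 in mucosa (SD, n = 3 each). Its call was lost with the mean of its probe sets. Cybb encodes the catalytic subunit of the phagocyte NADPH oxidase and was higher by 1.85 (SE 0.11), and Fcer1g, the common Fc receptor γ chain, stood at 12.21 ± 0.05 against 10.22 ± 0.12 in mucosa. Acadm, a mitochondrial fatty acid dehydrogenase, was higher by 1.79 (SE 0.10), and Gpld1, a phospholipase that cleaves GPI anchors, by 1.89 (SE 0.10). Nearest to Cst3 were Ptgfrn, Ier3, Txndc5, Fhip1b and Hexa, at distances of 0.05 to 0.06. Their differences were -0.23 to -0.29. Fhip1b did not pass, and the other 4 lost their calls in 2 to 6 of 19 alternatives.

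The wider machinery of the lysosome was described by 8 lists of genes, by counts and medians alone, against a median of 0.03 and a called share of 26.1% over all genes tested. Acid hydrolases other than the cathepsins included 17 higher, 3 lower and 19 not past of 39 tested, with a median of 0.35. Napsa, among the 17 and chosen after its values were seen, averaged 7.97 in peri-implant tissue and 5.22 in mucosa. It was dim in mucosa and passed the filter only through the peri-implant arrays. Gm2a, the activator of ganglioside breakdown, stood at 11.77, 11.77 and 11.66 in peri-implant tissue, against 10.71, 10.68 and 10.64 in mucosa, higher by 1.06 (SE 0.07, limma adjusted p = 2.48e-07). Rnaset2, a lysosomal ribonuclease, was higher by 1.02 (SE 0.08). Plbd1, a phospholipase B-like protein, was higher by 0.87 and lost its call with the mean of its probe sets. Manba, β-mannosidase, fell by 1.22 (SE 0.12, limma adjusted p = 7.13e-06), at 8.99, 9.41 and 9.29 in peri-implant tissue against 10.36, 10.61 and 10.40 in mucosa. Ids, iduronate sulfatase, fell by 0.44 and lost its call without the variance trend, and Hexa, a β-hexosaminidase chain, fell by 0.29 and lost its call without peri-implant array 2. Hydrolases of this list moved in both directions, more of them up.

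Among genes of lysosomal membrane and transport proteins 6 were higher, 2 lower and 22 not past of 30 tested, a share close to that of all genes, with a median of 0.07. The higher genes included Npc2, a carrier of cholesterol, by 0.70 (SE 0.07), Cd68, a macrophage membrane protein, by 0.93 (SE 0.10), Gpnmb, a glycoprotein of macrophages and pigment cells, by 0.79 (SE 0.10) and Slc15a3, a peptide transporter, by 1.88 (SE 0.28). Tpcn2, also called higher and chosen after its values were seen, was dim in mucosa. Cd63 and Tpcn1 fell by 0.25 (SE 0.07) and 0.49 (SE 0.16), and the groups overlapped for Tpcn1. Without peri-implant array 2 or 3 the list had 5 higher and 0 lower. The most abundant membrane proteins of the lysosome, Lamp1 and Lamp2, chosen after their values were seen, did not pass. Lamp1 averaged 13.29 ± 0.02 in peri-implant tissue and 13.24 ± 0.08 in mucosa, and Lamp2 13.63 ± 0.03 and 13.55 ± 0.09 (SD over 3 arrays). Their limma adjusted p-values were 0.700 and 0.540.

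Subunits of the vacuolar proton pump, which acidifies the lysosome, were 3 higher, 3 lower and 14 not past of 20, again close to the share of all genes, with a median of -0.02. Atp6v0c and Atp6v1c2 were higher by 0.49 and 0.56, and Atp6v0a4, a subunit isoform known from epithelia, fell by 0.41. The count of this list depended on the analysis: 6 higher and 2 lower under quantile normalisation, 3 and 1 with array medians centred. Atp6v1a, among the lower, lost its call in 10 of 19 alternatives. Tcirg1, among the higher and chosen after its values were seen, lost its call in 8. Genes that sort lysosomal enzymes included 3 higher, 1 lower and 22 not past of 26, with a median of 0.01. Grn, progranulin, was higher by 0.70 (SE 0.07, limma adjusted p = 9.69e-06). Igf2r, the large mannose 6-phosphate receptor, chosen after its values were seen, stood at 10.26, 10.26 and 10.21, against 10.42, 10.06 and 10.29 in mucosa (limma adjusted p = 0.937). Without peri-implant array 3 or mucosal array 1 only 2 genes of the sorting list were called.

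Other cathepsin genes included 2 higher and 3 not past of 5 tested, with a median of 0.24. Ctse, an aspartic protease of antigen-presenting and mucosal surface cells, was higher by 1.82 (SE 0.30), at 7.71, 7.52 and 7.26 against 5.96, 5.63 and 5.45 in mucosa, where its mean was dim. Ctsa, protective protein of β-galactosidase, was higher by 0.24 (limma adjusted p = 0.0267), but not in 8 of 19 alternatives, among them those without peri-implant array 1, 2 or 3 and without mucosal array 1 or 2. Cystatins and other inhibitors had 4 higher, 2 lower and 3 not past of 9. Serpinb3, a serpin that blocks cysteine cathepsins as known from human, was 18.1-fold higher, at 15.53, 15.44 and 15.60 against 11.44, 11.30 and 11.30 (limma adjusted p = 1.89e-12). Cst7, cystatin F of immune cells, was higher by 1.47 (SE 0.25), while Cstb, the cytosolic cystatin B, fell by 0.41 (SE 0.08) and Fetub, fetuin-B, fell by 0.60 (SE 0.09). Also higher were Stfa3, by 0.68 (SE 0.15), and Spink5, by 0.38 (SE 0.09), both chosen after their values were seen. So genes of this list changed in both directions, and the cystatin genes Cst3 and Cstb were both lower.

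Of transcription factors linked to lysosomal or myeloid genes, 5 were higher and 4 not past of 9, with a median of 0.43. Tfec, among the 5, averaged 6.65 in peri-implant tissue and 5.05 in mucosa, where it was dim. It passed the filter only through the peri-implant arrays. Irf8, a factor of macrophages and dendritic cells, was higher by 1.07 (SE 0.09, limma adjusted p = 1.40e-06), and Stat3 by 0.43, whose call was lost without the variance trend. Tfeb, chosen after its values were seen, stood at 8.53, 8.35 and 8.04 in peri-implant tissue, against 8.40, 8.18 and 8.35 in mucosa (limma adjusted p = 0.989). The count of this list fell to 3 without peri-implant array 1 or 3 and to 2 without peri-implant array 2. MHC class II presentation genes were higher in 8 of 8 tested, with a median of 2.78. Cd74, the invariant chain that cathepsin S cuts, stood at 13.51, 13.52 and 13.47 against 10.46, 10.26 and 10.32 in mucosa, a difference of 3.15 (SE 0.07).

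**Figure D4:**
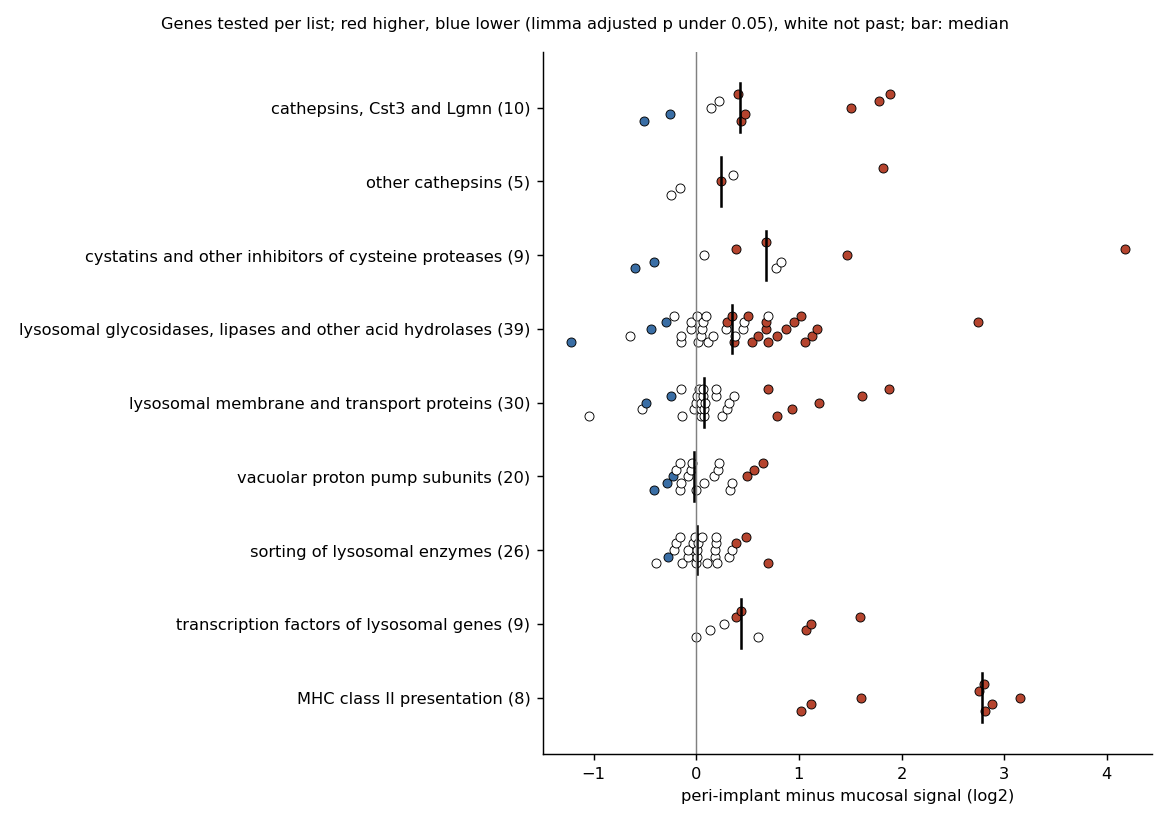
Each point is a gene tested, placed by its peri-implant minus mucosal difference on the log2 scale. Red points passed as higher, blue as lower (limma adjusted p under 0.05), white did not pass, the black bar is the median and the number of genes is in brackets. MHC class II genes lie far to the right at a median of 2.78, while proton pump and sorting genes centre on -0.02 and 0.01.

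Markers of several cell types also differed between the groups. In bulk tissue, more cells of a type and more RNA per cell cannot be told apart. The counts for each cell type stand against 15.2% higher and 11.0% lower over all genes tested. Of 17 macrophage markers tested, 14 were higher and 0 lower (median 1.00), and the summed signal of the 20 on the array was 14.98 to 15.05 in peri-implant tissue and 13.65 to 13.73 in mucosa. Lyz2, lysozyme, the brightest of those tested at 13.86 in peri-implant tissue and 12.51 in mucosa, was higher by 1.34 (SE 0.08) and weighed most in that sum. Mpeg1 and Aif1 were higher by 1.69 (SE 0.10) and 2.45 (SE 0.17). Both lost their calls with the mean of their probe sets (limma adjusted p = 0.734 and 0.394). Fcer1g, named above because its profile was near that of Ctss, was higher by 1.99 (SE 0.08). Adgre1, also called higher and chosen after its values were seen, was dim in mucosa. None of the macrophage markers was at 0 on any array, but Cd163, Trem2 and Itgam were below the filter. Their part in the rise of Ctss, Ctsz and Ctsd was not tested.

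Of 5 neutrophil markers tested 4 were higher, with summed signals of 16.86 to 17.30 in peri-implant tissue against 14.69 to 14.82 in mucosa. That sum was nearly all S100a8 and S100a9, which epithelium also makes. Csf3r, a neutrophil receptor, was higher by 2.26 (SE 0.19), Cxcr2, another, did not pass (-0.10), and 3 of the 8 markers on the array were below the filter. Of 15 T and NK cell markers on the array 8 were below the filter, among them Gzmb, Prf1, Nkg7 and Klrd1. All 7 tested were called higher, but Cd3e, Cd5 and Zap70 were dim in mucosa. The other 4 were Cd3g, higher by 2.30 (SE 0.22), Cd247, Cd2 and Lck. Among genes of the serine proteases that cathepsin C activates, Gzmb averaged 4.10 in peri-implant tissue and 4.56 in mucosa, both dim. Elane had no probe set matched by symbol. Of 9 mast cell markers on the array 8 were below the filter, and Tpsb2, a tryptase, differed by -0.80 without passing (limma adjusted p = 0.099).

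The dendritic and Langerhans cell list had 2 called higher of 5 tested, Epcam and Itgax. Its sum, 13.02 to 13.24 against 12.61 to 12.74 in mucosa, was nearly all Epcam, an epithelial gene also on the keratinocyte list, and Itgax, a myeloid integrin, was dim in mucosa. Cd83, Cd1d1 and Clec10a did not pass. The B and plasma cell list had 2 called higher of 4. Its sum, 12.62 to 12.73 against 12.17 to 12.33, was nearly all Xbp1, which many cells express, and the other call, Jchain, was dim in mucosa at 4.16. The markers named here that did not pass or were below the filter were chosen after their values were seen, as were Cd5, Zap70 and Lck. The part of these cells in the changes was not tested.

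Of 15 fibroblast markers, 10 were lower and 2 higher (median -0.75), beside the fall of Ctsk and Cst3. Their summed signal was 15.67 to 15.69 in peri-implant tissue and 16.33 to 16.47 in mucosa. Postn, periostin, stood at 11.99, 12.02 and 11.97 against 13.02, 13.03 and 13.11 and fell by 1.06 (SE 0.07). Col1a1, the main fibrillar collagen chain, fell by 0.83 (SE 0.07), while Dcn, decorin, was higher by 0.34 and lost its call without the variance trend. Osteoclast markers other than Ctsk were 1 higher, 1 lower and 3 not past of 5. Acp5, the tartrate-resistant phosphatase of osteoclasts, chosen after its values were seen, stood at 11.68, 11.70 and 11.72, against 11.77, 11.54 and 11.75 in mucosa (limma adjusted p = 0.914). Nfatc1, an osteoclast transcription factor active in many cells, fell by 1.29 (SE 0.18), and Car2, a carbonic anhydrase also found in epithelium, was higher by 2.87. The summed osteoclast signal, 13.84 to 13.93 in peri-implant tissue and 12.60 to 12.73 in mucosa, differed through Car2, while Acp5 and, chosen in the same way, Mmp9 and Itgb3 did not pass. None of the 7 markers was at 0, and Calcr and Tnfrsf11a were below the filter. Keratinocyte markers were 5 higher and 3 lower of 11. Krt15, Krt4 and Krt1 were higher by 3.65 (SE 0.07), 3.12 (SE 0.08) and 1.14 (SE 0.09), although the summed keratinocyte signals of the groups overlapped. Among the lower, Sfn and Pkp1 overlapped between groups. Both lost their calls without peri-implant array 1 or 2 or mucosal array 2 or 3, whereas Krt5 kept its call without any 1 array. Endothelial markers had 1 call of 9, Kdr, lost without peri-implant array 1, 2 or 3 or mucosal array 2 or 3. Salivary gland markers were 1 lower of 3. Erythrocyte genes were 2 higher and 1 not past of 3 tested. Alas2 was higher by 0.63 (SE 0.15) and Slc4a1 by 1.03 (SE 0.31), the latter lost in 8 of 18 alternatives. Hbb differed by 0.40 without passing (limma adjusted p = 0.0635), but passed under quantile normalisation (limma adjusted p = 1.95e-06). How much blood the samples held was not tested. The part of these cells in the fall of Ctsk and Cst3 was not tested.

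**Figure D5:**
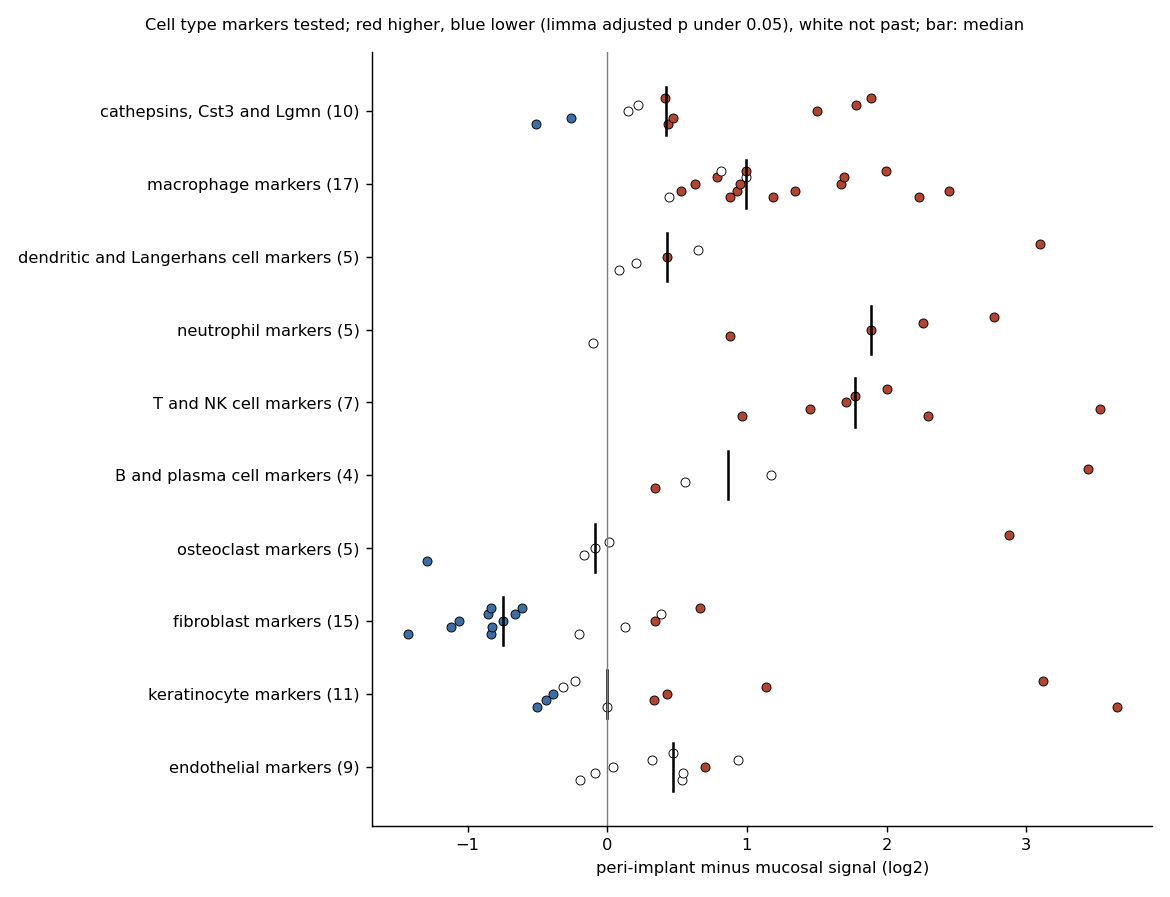
Points are marker genes tested for each cell type, placed by their peri-implant minus mucosal difference on the log2 scale, with colours and bars as in the plot of lysosomal lists and the 10 lysosomal genes at the top. Macrophage markers lie to the right of 0 at a median of 1.00 and most fibroblast markers to the left at -0.75.

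A sign of RNA quality also differed between the groups. The 3' minus 5' signal of the β-actin control was 3.94, 4.00 and 4.01 on the peri-implant arrays, against 2.95, 3.48 and 3.23 on the mucosal arrays. A wider gap is commonly read as less complete RNA or copying. That of the GAPDH control was 0.15, 0.17 and 0.24 against 0.14, 0.15 and 0.21. With the β-actin gap as a covariate, chosen after seeing the data, only Ctss, Ctsd and Ctsz were called among the 10 genes, and differences were -0.41 for Ctsk, -0.23 for Cst3, 0.28 for Ctsc, 0.51 for Ctsh and 0.49 for Lgmn. The groups did not overlap in this covariate, and it raised the SE of Ctsh to 0.19, against 0.07 without it.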

How the data were processed

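Total RNA of peri-implant soft tissue and oral mucosa was labelled with biotin by a 3' amplification kit and hybridised to 1 array per sample, 6 in all, per the labels' protocols. The deposited table holds 31099 probe sets, 57 of them array controls. Its values are log2 signals, and the authors' scaling shows in them: as linear values, each array averaged 500.0 once its top and bottom 2% were left out. The lowest log2 value was 0. The software was not given in the sources used here, nor was the background method.

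Values were used as deposited. Gene symbols came from the platform annotation: 20832 probe sets had 1 symbol, 436 had several and 9780 non-control probe sets were unnamed, and only those with 1 symbol were named. Of the 20832, 20764 matched a GRCr8 gene by gene number. Probe sets with a mean above the 40th percentile (5.68) were kept. Groups, taken from sample titles, were compared by two-sided tests in limma 3.58.1 (R 4.3.3), using lmFit followed by eBayes, in which the prior variance followed a trend with signal. The code was tested on simulated data. An exact permutation test of 3 against 3 arrays cannot go below p = 0.1 and was not used.

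The 10 genes and all lists were chosen with earlier results of these data known. List genes were matched by symbol. The genes named were the 10, up to 4 per list with the smallest p, up to 3 per list that passed in the other direction, and the 5 nearest in profile to Ctss and to Cst3. Others are said to have been chosen after their values were seen. Alternatives covered the normalisation, filter, low values, a pseudocount of 16 on the linear scale, the variance model, array weights, the mean of a gene's probe sets, a replicate block, and leaving out each array. The number of arrays limits the precision.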

Additional observations from a re-analysis of the deposited data

How the results depend on the processing

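The directions of the 10 genes held in 19 alternatives each, except that Lgmn turned to -0.72 (limma adjusted p = 0.410) with the mean of its probe sets, where the dim probe set near 0 on peri-implant array 3 entered. Over all alternatives but the covariate, 7 to 9 of the 10 genes were called, and 7 to 9 when each array was left out in turn. The β-actin covariate, added after the data were seen, reduced the calls to 3 of the 10 genes, 597 of 18625 probe sets against 4188, and 17 of 144 genes in the lysosomal lists against 58. The groups did not overlap in this covariate, so its effect and that of the tissue are hard to separate in these arrays, and the cause was not tested. It also turned Tpcn1, a lysosomal channel gene, to 0.26 (limma adjusted p = 0.802), against -0.49 as reported.

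Calls lost or gained among the 10 genes outside the covariate were those of Cst3, Ctsb, Ctsl and, with the mean of probe sets, Lgmn. The call of Cst3 was also lost with array medians centred (-0.28, limma adjusted p = 0.0954) and without the variance trend (-0.26, limma adjusted p = 0.0837). Leaving out each array gave 3071 to 4044 called probe sets, 46 to 58 called list genes and a change of 2.07 to 2.22 in Ctss minus Cst3. With the replicate block 8 of the 10 genes were called, whether fixed (4076 probe sets) or random (4203 probe sets). The deviations of same-numbered arrays correlated at 0.01, -0.08 and 0.03, and not every array correlated best with its own number. With 3 arrays per group this cannot decide whether same-numbered samples came from the same rat, which the labels do not state. The mean of probe sets gives no count of probe sets and was not run for it.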
